A study of Mus musculus with 6 samples.

Results

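The Wnt feedback regulators and direct target genes of the liver were taken as 9 genes named by symbol, *Axin2*, *Notum*, *Rnf43*, *Znrf3*, *Nkd1*, *Sp5*, *Lgr5*, *Tbx3* and *Tcf7*, out of 23282 genes in the count tables. All 9 were present in the tables, and all 9 passed the filter on low counts that left 14076 genes for testing, *Sp5* through its counts in wild-type livers only. Liver RNA came from 3 liver-specific *Tcf7l2*-knockout mice (*Alb-Cre;Tcf7l2* f/f) and 3 wild-type mice (*Tcf7l2* f/f), all of the C57BL/6 strain by the labels (C57BL/6N in the study's methods) and 12 weeks old, after a fast of 24 h and 24 h of refeeding with normal chow. Mice of both groups carry the floxed *Tcf7l2* alleles, and only knockout mice carry Cre recombinase. The *Albumin* promoter drives Cre in hepatocytes, and the study describes the ablation as hepatocyte-selective. *Tcf7l2* in other liver cells was not measured separately here. The question was how these genes differ between knockout and wild-type liver.

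Wnt ligands bound by Frizzled and LRP receptors stop the destruction of β-catenin, which then enters the nucleus and switches on target genes through transcription factors of the TCF/LEF family, of which TCF7L2 is one. Several targets encode proteins that damp the signal again, and these make up the negative feedback of the pathway. In the liver, Wnt signals come from endothelial cells around the central vein and maintain the gene programme of the neighbouring pericentral hepatocytes.

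Libraries held 60619938 to 68760956 counts in knockout livers and 67299258 to 133384586 in wild-type livers. Transcripts of the *Mup* genes, which encode major urinary proteins, took 18.5% to 28.7% of the counts in knockout libraries and 31.7% to 54.3% in wild-type libraries, so levels are given as counts scaled to a common library size (CPM), with the library sizes adjusted by the trimmed mean of M values (TMM). Libraries were labelled 7-2, 7-3 and 8-3 in knockout and 7-2, 8-1 and 8-3 in wild-type mice, and values stand in that order. Hepatocyte markers (*Alb*, *Apoa1*, *Ttr*, *Hnf4a* and *Cps1*) summed to 40909 to 57241 CPM in knockout and 45734 to 50215 CPM in wild-type livers. The targeted gene *Tcf7l2* was at 3.31, 2.74 and 3.33 CPM in knockout livers, against 4.87, 6.13 and 6.85 CPM in wild-type livers, or 52.5% of the wild-type mean. Every knockout library lay below every wild-type library for *Tcf7l2*, although the difference (log2 fold change −0.93, SE 0.19) did not pass edgeR's quasi-likelihood test (adjusted *p*=0.0856, a Benjamini-Hochberg value over all tested genes, as throughout). Only 1 exon of *Tcf7l2* is floxed, so that counts over the whole gene check its deletion in part.

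Transcripts of 5 of the 9 genes (*Notum*, *Sp5*, *Tcf7*, *Tbx3* and *Lgr5*) fell in knockout livers and none rose, by edgeR's quasi-likelihood test at an adjusted *p* below 0.05. Over all 14076 tested genes, 0.377% were lower and 0.0710% were higher by the same rule. At an unadjusted *p* below 0.05, 6 of the 9 were lower and 0 were higher, the sixth being *Axin2*, where 6.76% of all tested genes were lower and 6.70% were higher. DESeq2 gave the same 6 lower and 0 higher, against 1.70% and 1.38% of all tested genes. The median log2 fold change was −2.13 over the 9 genes and −0.017 over all tested genes. Without *Sp5*, which passed the filter through wild-type libraries only, 4 of the other 8 genes were lower, with a median of −2.05. The 3 knockout libraries lay wholly below the 3 wild-type libraries for 6 of the 9 genes and above them for 0, where 9.08% of all tested genes lay below and 10.2% above. *Sp5* is also among the 6 genes lower at the unadjusted threshold, the 6 lower by DESeq2 and the 6 wholly below. *Rnf43*, *Znrf3* and *Nkd1* overlapped between the groups. The count of 5 depended on single libraries: it was 3 without knockout library 7-2, knockout library 7-3 or wild-type library 8-3, 2 without knockout library 8-3 or wild-type library 8-1, and 4 without wild-type library 7-2. As RNA came from whole liver, fewer cells of a kind and less RNA per cell cannot be told apart.

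**Figure D1:**
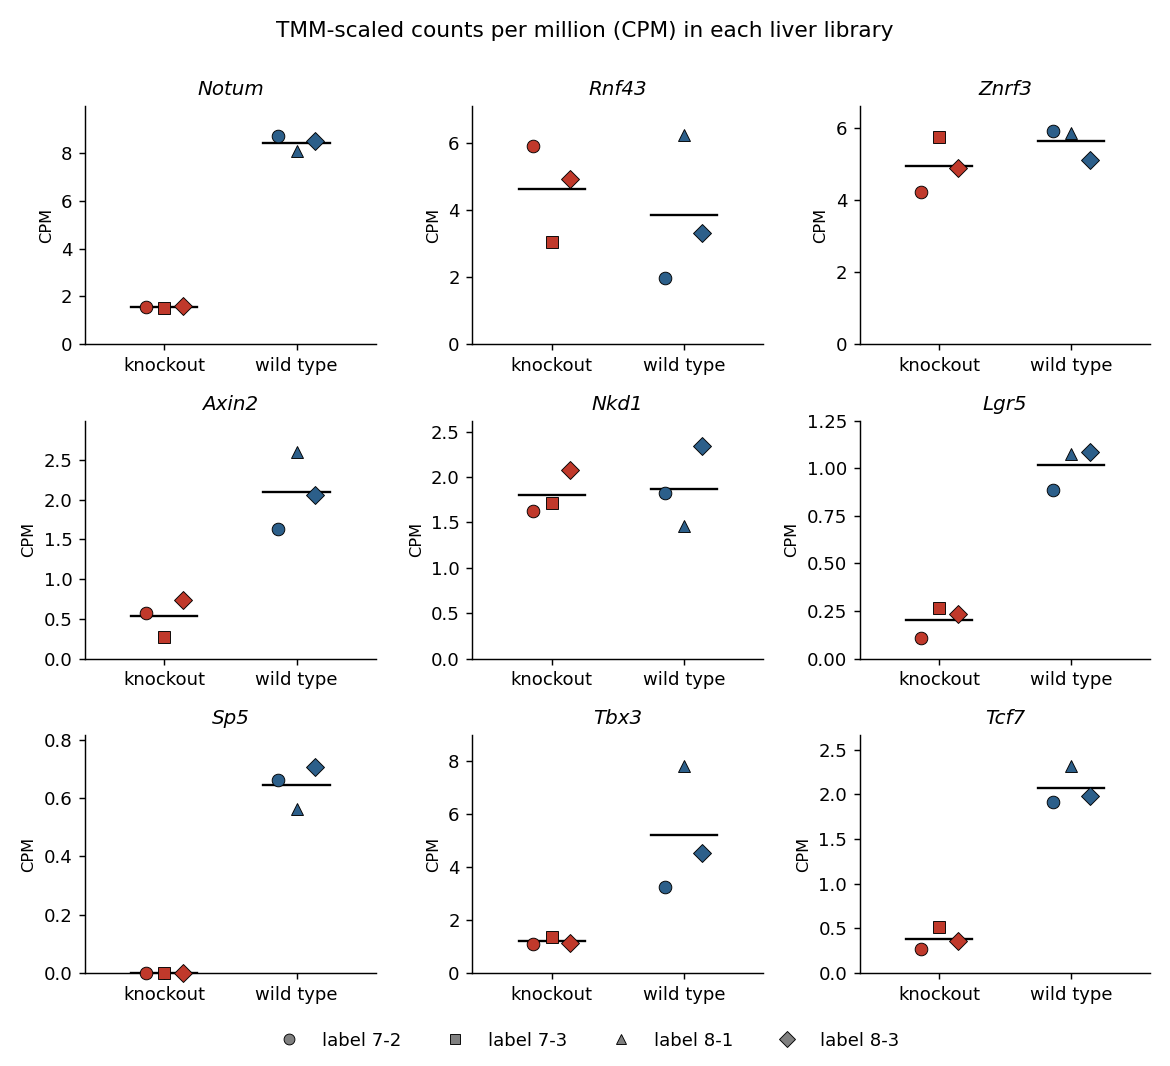
Level of each of the 9 Wnt feedback and target genes, in TMM-scaled CPM, with 1 point per library, knockout left of wild type, and a bar at the group mean; each panel starts at 0 and has its own scale. All 3 knockout libraries lie below all 3 wild-type libraries in 6 panels, while *Rnf43*, *Znrf3* and *Nkd1* overlap.

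*Notum* encodes a secreted carboxylesterase that removes the lipid from Wnt proteins and so inactivates them outside the cell. It lies at chr11:120653788-120661193 in GRCm38.p6, the RefSeq annotation of the build of the counts (mm10). *Notum* was at 1.55, 1.50 and 1.58 CPM in knockout livers, against 8.70, 8.10 and 8.52 CPM in wild-type livers. The libraries of each group stood close together, the highest being 1.05 times the lowest in knockout and 1.07 times in wild-type livers, and the groups were far apart. The fall to 18.3% of the wild-type mean (log2 fold change −2.45, SE 0.16, 95% interval −2.81 to −2.09) had the smallest adjusted *p* of the 9 genes in edgeR's quasi-likelihood test (adjusted *p*=0.000102). In all 18 alternative settings the fall in *Notum* passed the test.

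*Rnf43* and *Znrf3* encode related transmembrane E3 ubiquitin ligases that remove Frizzled receptors from the cell surface. *Rnf43* (chr11:87663087-87735539) was at 5.93, 3.04 and 4.92 CPM in knockout livers, against 1.99, 6.25 and 3.31 CPM in wild-type livers. Wild-type libraries 7-2 and 8-1 were the lowest and the highest of all 6, and the knockout libraries lay between them. The log2 fold change was 0.26 (SE 0.38, 95% interval −0.59 to 1.12, adjusted *p*=0.799 by edgeR's quasi-likelihood test), and it was −0.047 without wild-type library 7-2. Between libraries whose label begins with 7 the difference was 1.09 on the log2 scale, and between those whose label begins with 8 it was 0.11. Wild-type library 7-2 and knockout library 8-3 each stood alone for their group in these comparisons. *Rnf43* overlaps the long non-coding RNA gene *1110028F11Rik* by 5804 bases, and whether strand was used in counting is not given in the sources used here, so that reads of the overlap may belong to either gene.

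*Znrf3* (chr11:5276329-5444847) was at 4.23, 5.74 and 4.89 CPM in knockout livers, against 5.91, 5.86 and 5.10 CPM in wild-type livers. The lowest library was a knockout and the groups overlapped. The log2 fold change of *Znrf3* was −0.18 (SE 0.17, 95% interval −0.57 to 0.20, adjusted *p*=0.659 by edgeR's quasi-likelihood test). The interval spans 0 and stops well short of the fold change of *Notum*, and the test does not show that *Znrf3* was unaltered.

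*Lgr5* encodes a receptor for R-spondins, which protect Frizzled receptors from RNF43 and ZNRF3, and marks stem cells of the gut and hepatocytes next to the central vein. *Lgr5* (chr10:115450314-115587780) had 9, 20 and 20 counts in knockout livers, against 59, 90 and 74 counts in wild-type livers, or 0.106, 0.263 and 0.232 CPM against 0.888, 1.07 and 1.09 CPM. Although counts were low, the groups did not overlap. The log2 fold change was −2.34 (SE 0.41, 95% interval −3.25 to −1.43), just past the threshold by edgeR's quasi-likelihood test (adjusted *p*=0.0460). Leaving out any 1 of the 6 libraries ended this call, with adjusted *p* values between 0.0563 and 0.164 in the same edgeR test. *Lgr5* also overlaps *A930009A15Rik*, by 12469 bases. *Tbx3* and *Tcf7* overlap *Tbx3os1* and *Skp1*, by 975 and 332 bases.

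*Axin2* encodes a scaffold protein of the β-catenin destruction complex and is the most widely used transcriptional readout of Wnt/β-catenin activity. *Axin2* (chr11:108917828-108950783) was at 0.578, 0.277 and 0.731 CPM in knockout livers, against 1.62, 2.60 and 2.06 CPM in wild-type livers. Knockout library 7-3, with 21 counts, was the lowest, and the groups did not overlap. With a mean at 25.2% of wild type, the log2 fold change was −1.98 (SE 0.37, 95% interval −2.80 to −1.15). It did not pass edgeR's quasi-likelihood test (adjusted *p*=0.0654) and did pass in DESeq2 (adjusted *p*=3.19e-05). Of the 18 alternative settings, *Axin2* passed in 3, the other two being library sizes alone and no filter on low counts.

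*Nkd1* encodes naked cuticle homologue 1, which binds Dishevelled and inhibits the pathway inside the cell. *Nkd1* (chr8:88521342-88594887) was at 1.63, 1.71 and 2.08 CPM in knockout livers, against 1.82, 1.46 and 2.34 CPM in wild-type livers. The wild-type libraries held both the lowest and the highest value. The log2 fold change of *Nkd1* was −0.049 (SE 0.25, 95% interval −0.61 to 0.51, adjusted *p*=0.957 by edgeR's quasi-likelihood test), and its sign turned in several settings.

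*Sp5* encodes a zinc finger transcription factor of the Sp family that is a direct target of Wnt/β-catenin signalling. *Sp5* (chr2:70474923-70477726) had 0 counts in each of the 3 knockout libraries, against 44, 47 and 48 counts in wild-type livers. In wild-type livers that was 0.662, 0.561 and 0.705 CPM, while the floor of 3 counts over the knockout group stands at 0.0122 CPM. Against that floor, *Sp5* was at least 52.4-fold lower in knockout livers, and with 3 counts in each library the bound was 17.5-fold. Because *Sp5* passed the filter through its wild-type counts only, its adjusted *p* of 0.00721 by edgeR's quasi-likelihood test adds no support to these counts. The fitted fold change depends on the prior count and is no bound. Both bounds take the wild-type counts as given. With counting error in both groups, the exact 95% interval for the ratio of knockout to wild-type level reached up to 0.0238. Bounds and intervals on counts cover at most counting error, since the reads carry no molecular identifiers.

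The 250 bases before the start of *Sp5* are shown because they hold the letters CTTTGAT, a core of the TCF/LEF binding motif (ATCAAAG on the other strand), and the same stretch of *Rnf43*, a gene that overlapped between the groups, is shown beside it. Both are RefSeq promoter sequences of GRCm38.p6 on the + strand, at chr2:70474673-70474922 for *Sp5* and chr11:87662837-87663086 for *Rnf43*. Capitals mark CTTTGA, the first letters of that motif.
Sp5: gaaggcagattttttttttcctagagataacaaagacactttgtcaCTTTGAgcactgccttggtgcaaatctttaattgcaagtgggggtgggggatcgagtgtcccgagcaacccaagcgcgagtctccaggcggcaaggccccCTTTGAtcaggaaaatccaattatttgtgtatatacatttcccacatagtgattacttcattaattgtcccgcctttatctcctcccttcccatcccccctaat
Rnf43: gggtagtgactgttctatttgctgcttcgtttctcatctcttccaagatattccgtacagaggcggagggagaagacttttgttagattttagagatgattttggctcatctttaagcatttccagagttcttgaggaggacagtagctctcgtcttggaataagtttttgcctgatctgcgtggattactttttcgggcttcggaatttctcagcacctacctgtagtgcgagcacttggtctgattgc
In *Sp5* the whole motif CTTTGAT stood at positions −104 to −98 relative to the start, and a further CTTTGA at −204 to −199. Of the 9 genes, 5 had entries among the RefSeq promoters (*Axin2*, *Nkd1*, *Rnf43*, *Sp5* and *Tcf7*), with 7 promoters in all, each of 250 bases before and 50 after a start. CTTTGAT on either strand was in the promoter of *Sp5* and in none of the other 6. Those without it include the promoters of *Axin2* and *Tcf7*, which were also lower in every knockout library. Among all 32851 promoters of that length, 3.73% held CTTTGAT and 16% held CTTTGA. A match is only a match of letters, and its absence from this window says nothing on binding elsewhere.

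*Tbx3* encodes a T-box transcription factor and repressor that is expressed in pericentral hepatocytes. *Tbx3* (chr5:119670534-119684724) was at 1.09, 1.37 and 1.13 CPM in knockout livers, against 3.25, 7.82 and 4.54 CPM in wild-type livers. Knockout libraries stood close together, wild-type libraries were spread over a 2.41-fold range, and the groups did not overlap. The log2 fold change was −2.13 (SE 0.32, 95% interval −2.84 to −1.42, adjusted *p*=0.0260 by edgeR's quasi-likelihood test). Between libraries with a label beginning with 7 the difference was −1.39 on the log2 scale, and it was −2.38 between those beginning with 8. Again, wild-type library 7-2 and knockout library 8-3 each stood alone for their group. The call of *Tbx3* was lost by the same edgeR test when knockout library 7-2 (adjusted *p*=0.0955), 7-3 (0.0649) or 8-3 (0.120) was left out, and likewise wild-type library 8-1 (0.0550) or 8-3 (0.0574).

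*Tcf7* encodes TCF1, a TCF/LEF factor of the same family as TCF7L2 and best known from T lymphocytes. *Tcf7* (chr11:52246527-52283383) was at 0.272, 0.514 and 0.360 CPM in knockout livers, against 1.91, 2.32 and 1.98 CPM in wild-type livers. The highest knockout library was far below the lowest wild-type library. The log2 fold change of *Tcf7* was −2.44 (SE 0.31, 95% interval −3.13 to −1.75, adjusted *p*=0.00943 by edgeR's quasi-likelihood test). Without knockout library 8-3 or wild-type library 8-1 the adjusted *p* by edgeR was 0.0552 or 0.0551. T and NK lymphocyte markers were at 3.53 to 5.28 CPM in sum in knockout livers and 3.94 to 5.27 CPM in wild-type livers, and 0 of the 7 that could be tested passed edgeR's test in either direction (0 at an unadjusted *p* below 0.05 and 0 by DESeq2). Of their defining markers, *Cd8a* was near 0, with 2 counts over the knockout and 9 over the wild-type libraries.

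**Figure D2:**
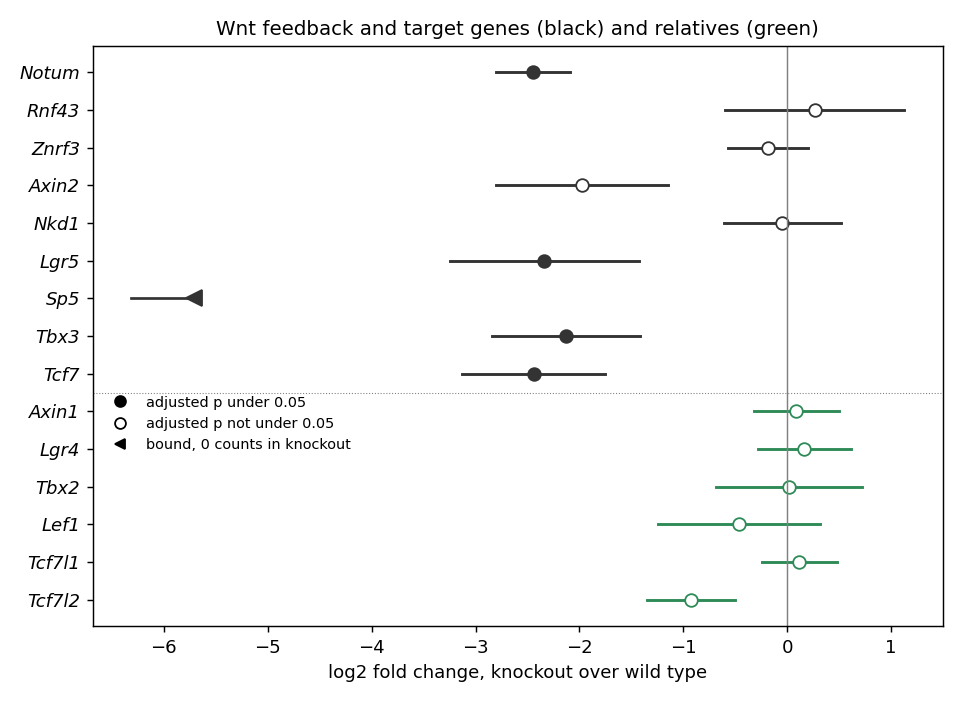
Log2 fold change, knockout over wild type, of the 9 genes (black) and 6 tested relatives (green), with 95% intervals from edgeR's quasi-likelihood fit and filled points where the adjusted *p* is below 0.05; *Sp5*, with 0 counts in knockout livers, is drawn at its bound of −5.71 with an arrow. *Notum*, *Tcf7*, *Lgr5*, *Tbx3* and *Axin2* lie between −2.45 and −1.98, and the intervals of *Znrf3*, *Nkd1* and *Rnf43* span 0.

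The 5 lower genes with counts in both groups, *Axin2* included, had log2 fold changes within −2.45 to −1.98, and their 95% intervals overlapped one another. They were therefore not separated in the size of the difference, whereas *Znrf3*, *Nkd1* and *Rnf43* had intervals that did not reach that range. Ratios within a library do not depend on the scaling between libraries. Relative to *Znrf3*, the log2 ratio of *Notum* averaged −1.67 in knockout and 0.59 in wild-type livers, a difference of −2.26. The differences for *Tcf7*, *Lgr5*, *Axin2* and *Tbx3* over *Znrf3* were −2.27, −2.21, −1.87 and −1.84, and in each pair all 3 knockout libraries lay below all 3 wild-type libraries. *Rnf43* over *Znrf3* differed by 0.56 with overlapping groups. In an exact two-sided permutation test over the libraries, the *p* was 0.1, the smallest that 3 against 3 can give, for 10 of the 11 ratios computed and 0.5 for *Rnf43* over *Znrf3* (0.11 and 0.5 after Benjamini-Hochberg adjustment over the 11). The pairs share genes and restate differences given above, so that the ratios are not separate support.

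**Figure D3:**
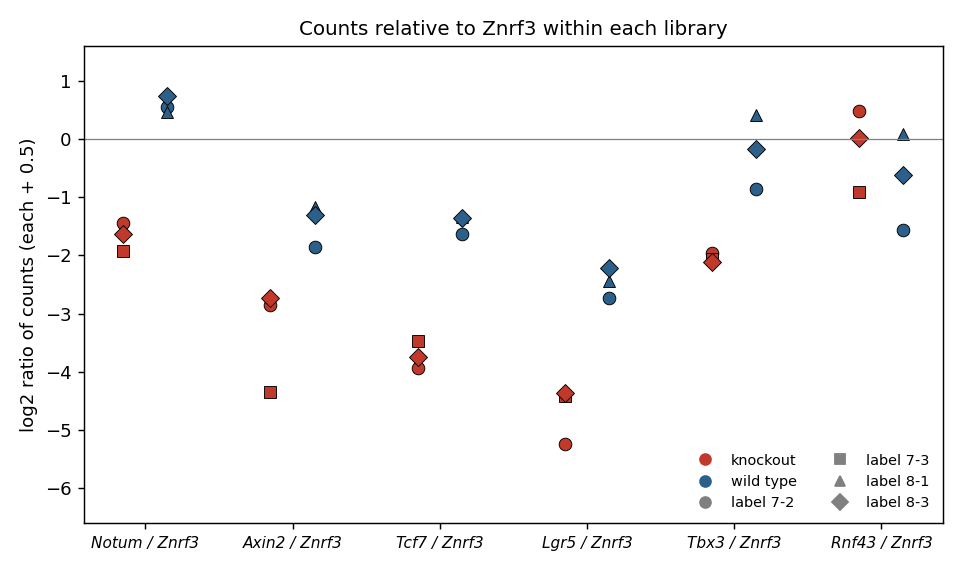
Log2 ratio of counts of 2 genes within each library, with 1 point per library, knockout left of wild type. Ratios of *Notum*, *Tcf7*, *Lgr5*, *Axin2* and *Tbx3* to *Znrf3* are lower in every knockout library, by 1.84 to 2.27 on average, and *Rnf43* over *Znrf3* overlaps.

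Levels of different genes were set in order per kilobase of spliced transcript. In knockout livers the mean was highest for *Rnf43*, at 1.14 CPM per kb, followed by *Znrf3* (0.773), *Nkd1* (0.584), *Notum* (0.551), *Tbx3* (0.232), *Axin2* (0.119), *Tcf7* (0.110), *Lgr5* (0.0426) and *Sp5* (0 CPM per kb). In wild-type livers *Notum* came first with 3.02 CPM per kb, then *Tbx3* (1.01), *Rnf43* (0.950), *Znrf3* (0.879), *Nkd1* (0.605), *Tcf7* (0.596), *Axin2* (0.473), *Sp5* (0.306) and *Lgr5* (0.216 CPM per kb). In knockout livers the libraries of neighbours overlapped from *Rnf43* down to *Notum* and between *Axin2* and *Tcf7*, and in wild-type livers from *Tbx3* to *Znrf3* and from *Nkd1* to *Axin2*. *Notum* thus stood apart above all other genes of the set in wild-type livers, and below *Rnf43* and *Znrf3* in knockout livers, where it overlapped *Nkd1*. Lengths are of GENCODE transcripts and may differ from those counted by the authors.

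The closest relatives of the 9 genes did not pass the test. *Axin1*, the constitutive scaffold of the destruction complex, was at 8.76, 11.1 and 11.7 CPM in knockout livers and 12.0, 8.29 and 9.51 CPM in wild-type livers (log2 fold change 0.087). *Lgr4*, which encodes another R-spondin receptor, had a log2 fold change of 0.16, *Tbx2* of 0.016 and *Tcf7l1* of 0.12, all with overlapping groups. *Lef1* was lower in each knockout library at −0.47 (adjusted *p*=0.583 by edgeR's quasi-likelihood test). *Nkd2*, *Sp8* and *Lgr6* were below the filter, with 13, 21 and 0 counts over the knockout libraries and 16, 25 and 6 over the wild-type libraries. Within libraries, the log2 ratio of *Lgr5* to *Lgr4* was lower by 2.60, that of *Axin2* to *Axin1* by 2.15 and that of *Tcf7* to *Tcf7l2* by 1.55 in knockout livers, each without overlap.

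Of 26 other Wnt target and feedback genes, 18 could be tested, and 2 fell in knockout livers while 0 rose by edgeR's quasi-likelihood test. At an unadjusted *p* below 0.05 the counts were 2 and 2, and by DESeq2 they were 2 and 1. The shares over all tested genes were 0.377% lower and 0.0710% higher by edgeR. They were 6.76% and 6.70% at the unadjusted threshold, and 1.70% and 1.38% by DESeq2. *Tnfrsf19*, which encodes the TNF receptor family member TROY, was at 0.165, 0.171 and 0.139 CPM in knockout livers and 0.948, 1.48 and 1.15 CPM in wild-type livers (log2 fold change −2.90, SE 0.36, edgeR adjusted *p*=0.00878). *Ccnd1*, which encodes cyclin D1, was at 3.03, 2.73 and 2.84 CPM in knockout livers and 5.39, 7.66 and 6.54 CPM in wild-type livers (−1.19, SE 0.18, edgeR adjusted *p*=0.0294). The groups of both genes stood apart. Of the 18 alternative settings, *Tnfrsf19* passed in 14 and *Ccnd1* in 9. With 1 library left out, the call of *Ccnd1* held only without wild-type library 7-2 (edgeR adjusted *p*=0.0198). *Jun*, a subunit of AP-1, and *Dkk4*, a secreted Wnt inhibitor, lay the other way at 1.44 and 1.54 on the log2 scale. Every knockout library lay above every wild-type library for both genes. Neither passed edgeR's test (adjusted *p*=0.154 and 0.266). In DESeq2, *Jun* did pass (adjusted *p*=0.00311) and *Dkk4* did not (0.268). The median over the 18 genes was 0.23, and that over the 9 genes was −2.13.

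Among 41 components of the pathway (β-catenin, destruction complex, Dishevelled, Frizzled and LRP receptors, TCF/LEF factors and their partners), 37 were tested, with 0 lower and 0 higher by edgeR's quasi-likelihood test, 2 and 2 at an unadjusted *p* below 0.05, and 2 and 1 by DESeq2. At the unadjusted threshold these counts are near the share over all tested genes (6.76% lower and 6.70% higher). By DESeq2 the shares over all tested genes were 1.70% and 1.38%. In both counts the 2 lower components were *Lrp5* and *Tcf7l2*, the targeted gene itself. The median log2 fold change of the 37 components was 0.16. The co-receptor gene *Lrp5* was at −0.70, *Tle4*, which encodes a Groucho co-repressor, at 0.75 and the receptor gene *Fzd4* at 0.74 (edgeR adjusted *p*=0.147, 0.0892 and 0.232). Of 12 genes for Wnt and R-spondin ligands and their secretion, 9 were tested and 0 passed in either direction by edgeR (1 lower and 0 higher at an unadjusted *p* below 0.05, 0 and 0 by DESeq2). At that unadjusted threshold, 6.76% of all tested genes were lower and 6.70% were higher. *Wnt4* was at −0.76 with overlapping groups, *Wnt9b* at −0.71, *Wls*, which encodes the carrier of Wnt proteins to the cell surface, at 0.52 and *Rspo3*, the R-spondin of central vein endothelium, at 0.39. Of 16 pericentral hepatocyte genes that depend on Wnt signals, 7 were lower and 0 higher by edgeR, against 0.377% and 0.0710% of all tested genes, with a median of −1.25. At an unadjusted *p* below 0.05 the counts were 11 and 1, against 6.76% and 6.70%, and by DESeq2 they were 10 and 1, against 1.70% and 1.38%.

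Summed markers of endothelial and stellate cells were higher in every knockout library, while those of Kupffer cells and cholangiocytes overlapped between the groups. All 10 sinusoidal endothelial markers had positive log2 fold changes, with a median of 0.36, and summed to 88.9 to 94.7 CPM in knockout and 71.3 to 78.3 CPM in wild-type livers. Stellate cell markers (8, median 0.25) summed to 72.4 to 80.1 CPM in knockout and 49.8 to 60.3 CPM in wild-type livers. Of these markers, 5 had positive and 3 had negative log2 fold changes (*Col1a1* −0.22, *Des* −0.090 and *Pdgfrb* −0.086). *Dcn* alone gave 28.9, 36.5 and 28.3 CPM of the sums in knockout and 17.5, 18.9 and 11.1 CPM in wild-type livers. Kupffer cell markers (7, median −0.20) were at 56.7 to 73.1 CPM in knockout and 70.0 to 85.5 CPM in wild-type livers. Cholangiocyte markers (5 tested, median −0.49, with *Krt7* the lowest at −1.21 and below wild type in every knockout library) summed to 27.8 to 33.7 CPM in knockout and 29.5 to 52.8 CPM in wild-type livers. None of the 30 endothelial, stellate and Kupffer cell and cholangiocyte markers that were tested passed edgeR's test (2, 3, 0 and 0 higher and 0, 0, 1 and 1 lower at an unadjusted *p* below 0.05, and by DESeq2 only 2, the stellate cell markers *Dcn* and *Reln*, both higher). Over all tested genes, 6.76% were lower and 6.70% higher at that unadjusted threshold, and 1.70% and 1.38% by DESeq2. *Dcn* and *Reln* were at 197% and 187% of the wild-type mean. Their part in the differences of the 9 genes was not tested.

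Likeness of pattern was measured as the root mean square difference of log2 CPM, centred on each gene's mean, over the 6 libraries. *Sp5* enters the mean profile of the 9 genes with knockout values set by the prior count, since it had 0 counts there. To this profile, the nearest of 14067 other genes were *Mycn* (0.14), *Slc22a3* (0.19), *Platr17* (0.22), *Gulo* (0.24) and *Cks1b* (0.25). *Lgr5* had *Tcf7* as its nearest gene of all 14075 (0.20), and no other gene of the set had one of the 9 as its nearest. *Notum* and *Tcf7* were each nearest to *Slc1a2*, a glutamate transporter gene of pericentral hepatocytes (0.14 and 0.20), which was at 10.6, 12.7 and 11.2 CPM in knockout livers and 61.3, 70.3 and 69.3 CPM in wild-type livers.

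The 9 genes differed in how far the calls held over the 18 alternative settings. *Notum* was the only gene that passed in every one. *Sp5* passed in 16 of the 17 that gave it a value, but with 0 counts in knockout livers and a place in the test through wild-type counts only. *Tcf7* passed in 15, *Tbx3* in 9 and *Lgr5* in 8, each with a negative log2 fold change in all 18. Within libraries whose label begins with 7, and then within those that begin with 8, the log2 difference was −2.49 and −2.38 for *Notum*, −2.27 and −2.49 for *Tcf7*, −2.22 and −2.10 for *Lgr5*, −1.95 and −1.63 for *Axin2*, −0.26 and −0.16 for *Znrf3*, and −0.12 and 0.17 for *Nkd1*. Labels beginning with 7 set knockout libraries 7-2 and 7-3 against wild-type library 7-2 alone. Those beginning with 8 set knockout library 8-3 alone against wild-type libraries 8-1 and 8-3. What the leading number stands for is not given in the labels. Values of *Lgr5* ran from −2.59 to −1.73 and those of *Tbx3* from −2.37 to −1.42.

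**Figure D4:**
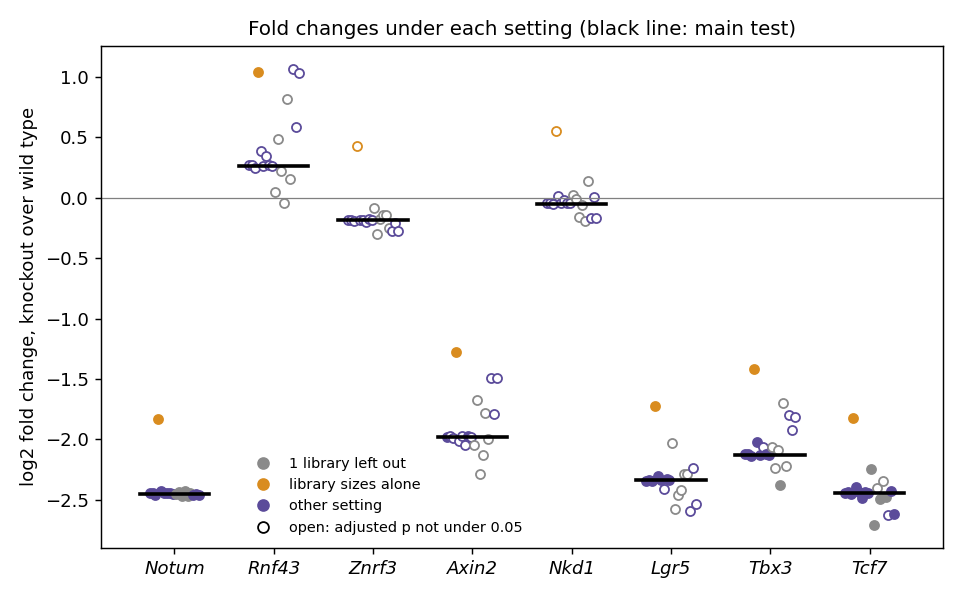
Log2 fold change, knockout over wild type, of the 8 genes with counts in both groups, as a line for the value reported and a point for each alternative setting, filled where the adjusted *p* is below 0.05. *Notum* is past the threshold in all 18 alternatives, *Tcf7* in 15, *Tbx3* in 9, *Lgr5* in 8 and *Axin2* in 3 of 18, and all of these are below 0 throughout.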

How the data were processed

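Liver RNA of 3 knockout and 3 wild-type mice was sequenced from directional libraries. Per library, the authors deposited raw read counts of genes, made with Bedtools 2.25.0 on mm10, where the submitters' processing notes name TopHat as aligner. For the aligner's version and the annotation, nothing is given in the sources used here. A library was taken to be 1 mouse, since the study gives 3 mice per genotype. No 2 libraries were copies (smallest chi-square per degree of freedom 162), and 35 symbols name more than 1 row.

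Counts of 14076 genes that passed filterByExpr (minimum count 10, minimum total 15) were tested in R 4.3.3 by the quasi-likelihood test of edgeR 4.0.16, with TMM factors, no further term and Benjamini-Hochberg adjustment over all genes, called below 0.05. The biological coefficient of variation was 23.9%. SE is the log2 fold change divided by the root of the F statistic. Differences by leading label number are of log2 CPM with a prior count of 2, and ratios have 0.5 added to each count. Single values had an exact two-sided permutation test (smallest *p* 0.1). The script was tested on simulated data. Spliced lengths are of GENCODE canonical transcripts, and positions and promoters are of RefSeq GRCm38.p6.

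The 9 genes and the lists were chosen with earlier results of these data known. All 9 were named, with their closest relatives, up to 4 genes of smallest *p* per pathway list and the nearest genes by likeness. Other settings were TMM factors without *Mup* genes, library sizes alone, upper-quartile and RLE factors, DESeq2 1.42.0, limma 3.58.1 on quantile-normalised log2 counts and with voom, 2 other filters, each library left out, replicate blocks, a floor in each library and a shorter motif.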

Additional observations from a re-analysis of the deposited data

How the results depend on the processing

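Counts of lower genes (53) were 239 with DESeq2, 88 with library sizes alone and 21 to 69 with 1 library left out, and those of higher genes (10) were 194, 2932 and 3 to 18, with 6 in limma-voom and 23 with no filter. Library sizes alone moved the median of all genes to 0.61 on the log2 scale. Of the 9 genes, 3 were lower in limma-voom, 2 to 4 with 1 library left out, and 1 (*Rnf43*) higher with library sizes alone. Other Wnt targets had 1 lower with library sizes alone, 0 to 2 with 1 library left out, and 1 higher in DESeq2 and 8 with library sizes alone. Components had 2 lower and 1 higher in DESeq2 and 17 higher with library sizes alone. *Tcf7l2* passed in DESeq2 (−0.92). Signs turned for *Rnf43* (−0.047 without wild-type library 7-2, with −0.047 to 0.82 when 1 library was left out), *Znrf3* (0.43) and *Nkd1* (0.56) with library sizes alone, and for *Nkd1* with quantile normalisation (0.011), without knockout library 7-2 (0.020) or wild-type library 8-3 (0.14), in a range of −0.19 to 0.14 when 1 library was left out, and with the block on the leading label number (0.0070). The causes were not tested. The bound for *Sp5* was 17.5-fold with a floor in each library, and the 6-letter motif was in 16% of promoters; *Sp5* has no value at a mean log2 count of at least 5. Label numbers 7-2 and 8-3 occur in both genotypes but deviations of same-numbered libraries did not correlate (r across genes 0.0079 and −0.0069), so they were not taken as pairs. With the number as a replicate block over these 4 libraries, 33 genes were lower, 1 of the 9 (*Notum*) and 0 other Wnt targets; without the block, an alternative chosen after seeing the data, 33, 3 and 0. A block on the leading label number gave 33 lower, 6 higher, 3 of the 9 and 1 other target. Depth limits *Lgr5*, *Sp5* and *Tcf7* most, with 49, 0 and 93 counts in knockout livers.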
